A study of Homo sapiens with 4 samples.

Results

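A group of 10 genes of the YAP and TEAD axis was examined in SK-LMS-1 cells, an established human line labelled as uterine leiomyosarcoma, that were exposed to the compound 2-D08 at 50 µM for 48 h or left untreated. The 10 genes were chosen by symbol from the 19381 genes in the deposited tables. They are the coactivator genes YAP1 and WWTR1, the DNA-binding partner genes TEAD1 and TEAD4, the secreted target genes CCN1 and CCN2, the nuclear target gene ANKRD1, the feedback inhibitor genes AMOTL2 and LATS2, and the scaffold gene AJUBA. All 10 had a row and all 10 passed the filter on low counts. There were 2 libraries of 2-D08-treated cells and 2 of untreated cells, each from total RNA depleted of ribosomal RNA. 2-D08 is a flavone known to block SUMOylation, the joining of the SUMO protein to other proteins. The labels name no vehicle for the untreated cells and do not state that the pair in each group came from 2 cultures, so p-values reflect a spread that may be technical.

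YAP, encoded by YAP1, and its paralogue TAZ, encoded by WWTR1, are coactivators that do not bind DNA themselves and act on genes through the TEAD family of transcription factors. The Hippo pathway restrains them: a kinase cascade ending in the LATS kinases phosphorylates YAP and TAZ, which keeps them in the cytoplasm or marks them for degradation. Their activity rises with cell spreading and actin tension and is controlled largely at the protein level, so transcript levels of YAP1 and WWTR1 are no measure of it. CCN1, CCN2 and ANKRD1 are widely used as readouts of YAP and TEAD activity, and AMOTL2 and LATS2 are targets that also feed back on YAP.

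Library totals ran from 14796702 to 31300635 counts. In 2-D08 replicate 2 and untreated replicate 1, 87.5% and 88.2% of the counts of at least 10 were even numbers, against 50.4% in 2-D08 replicate 1 and 50% in untreated replicate 2. Whether reads of 2-D08 replicate 2 and untreated replicate 1 entered the counts repeatedly was not tested, and halving their counts changed no call among the 10 genes. Smooth muscle markers were scarce: DES had 0 counts in all 4 libraries, MYOCD had 2 and 2 counts in treated and 0 and 0 in untreated cells, and MYH11 lay at 0.34 and 0.54 TPM in treated and 0.11 and 0.38 TPM in untreated cells. ACTA2 lay at 4.46 and 5.6 TPM in treated and 9.64 and 5.84 TPM in untreated cells, CNN1 at 2.14 and 3.8 TPM in treated against 4.09 and 4.53 TPM in untreated cells, and ACTG2 at 0.73 and 0.49 TPM in treated against 1.37 and 1.84 TPM in untreated cells. The markers of immune (PTPRC), epithelial (EPCAM) and endothelial (PECAM1) cells each lay at or under 1.08 TPM in all 4 libraries. In bulk RNA, fewer cells of a type and less RNA per cell cannot be told apart.

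TEAD proteins recognise the short motif GGAATG. The upstream sequences of 2 target genes that rose and of the member that fell most are shown because they differ in how often it occurs. They were picked with their changes known, and whether motif number goes with the change was not tested. The sequences are RefSeq's, build GRCh38.p14, each 250 bases long, ending at the base before the annotated start and read 5′ to 3′ on the gene's strand. Capitals mark GGAATG or its reverse complement CATTCC.
CCN2, chr6:131951373-131951622, minus strand: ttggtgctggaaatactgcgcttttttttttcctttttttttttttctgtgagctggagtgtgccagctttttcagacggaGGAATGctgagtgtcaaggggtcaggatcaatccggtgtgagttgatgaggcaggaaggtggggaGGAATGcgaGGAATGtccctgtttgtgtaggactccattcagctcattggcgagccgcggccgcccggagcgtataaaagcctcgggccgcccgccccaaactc
ANKRD1, chr10:90921088-90921337, minus strand: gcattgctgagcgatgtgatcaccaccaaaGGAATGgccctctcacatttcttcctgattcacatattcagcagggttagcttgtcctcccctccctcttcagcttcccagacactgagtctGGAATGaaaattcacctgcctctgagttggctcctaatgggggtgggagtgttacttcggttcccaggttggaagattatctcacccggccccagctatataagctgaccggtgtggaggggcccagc
AJUBA, chr14:22982552-22982801, minus strand: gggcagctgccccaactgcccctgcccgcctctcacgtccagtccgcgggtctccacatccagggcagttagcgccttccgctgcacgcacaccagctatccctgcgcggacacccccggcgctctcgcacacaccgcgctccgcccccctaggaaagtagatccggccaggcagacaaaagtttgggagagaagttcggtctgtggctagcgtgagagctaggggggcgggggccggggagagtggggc
Distances are counted upstream from 1 at the base before the start. CCN2 held 3 copies, beginning 169, 104 and 95 bases upstream, and ANKRD1 held 2, beginning 220 and 128 bases upstream. AJUBA held none in this window and 1 in the window of a second annotated start inside the gene. Of 35116 annotated windows of this length, 11.9% held the motif on either strand, 0.94% held at least 2 copies and 0.0826% at least 3. The members had 10 windows over 7 genes. CCN1, which fell, TEAD1 and TEAD4 had no window and were not searched. Of the 10 windows, 5 held at least 1 copy. These 5 were the windows of CCN2, ANKRD1 and YAP1 and 1 of the 2 windows each of AMOTL2 and AJUBA. YAP1, AMOTL2 and AJUBA held 1 copy each. The pattern TGANTCA, which takes in the AP-1 motif but leaves its central base open, was found in 6.57% of all windows. Among the 10 windows it was found in that of ANKRD1 alone, beginning 195 bases upstream. The match reads TGATTCA, with T at the centre, and need not be an AP-1 site. It did not overlap a GGAATG copy. The CArG box, the SRF motif, was found in none of the 10 windows, which do not include CCN1, and in 1.16% of all windows. At so low a share, its absence from 10 windows says little. These are letter matches in a fixed window and do not show binding.

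Treated cells were compared with untreated cells to ask whether transcripts of the YAP and TEAD axis changed with the compound. CCN2 and ANKRD1 rose, CCN1 and AJUBA fell, and the other 6 genes did not pass the test. Of the 10 members, 4 were called in either direction, against 33.9% of the 12906 genes tested. By direction, 2 of 10 members were called higher, against 17.1% of genes, and 2 were called lower, against 16.9%. Called genes have an adjusted p under 0.05 in edgeR's quasi-likelihood test (Benjamini-Hochberg over all tested genes). The members' median log2 fold change was 0.04, against 0.00 for all tested genes. Groups did not overlap in CPM, counts scaled to library size with TMM factors, for 6 of 10 members, against 67.5% of tested genes. Both shares lay near those of the whole table, so the counts themselves show nothing particular to these genes.

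**Figure D1:**
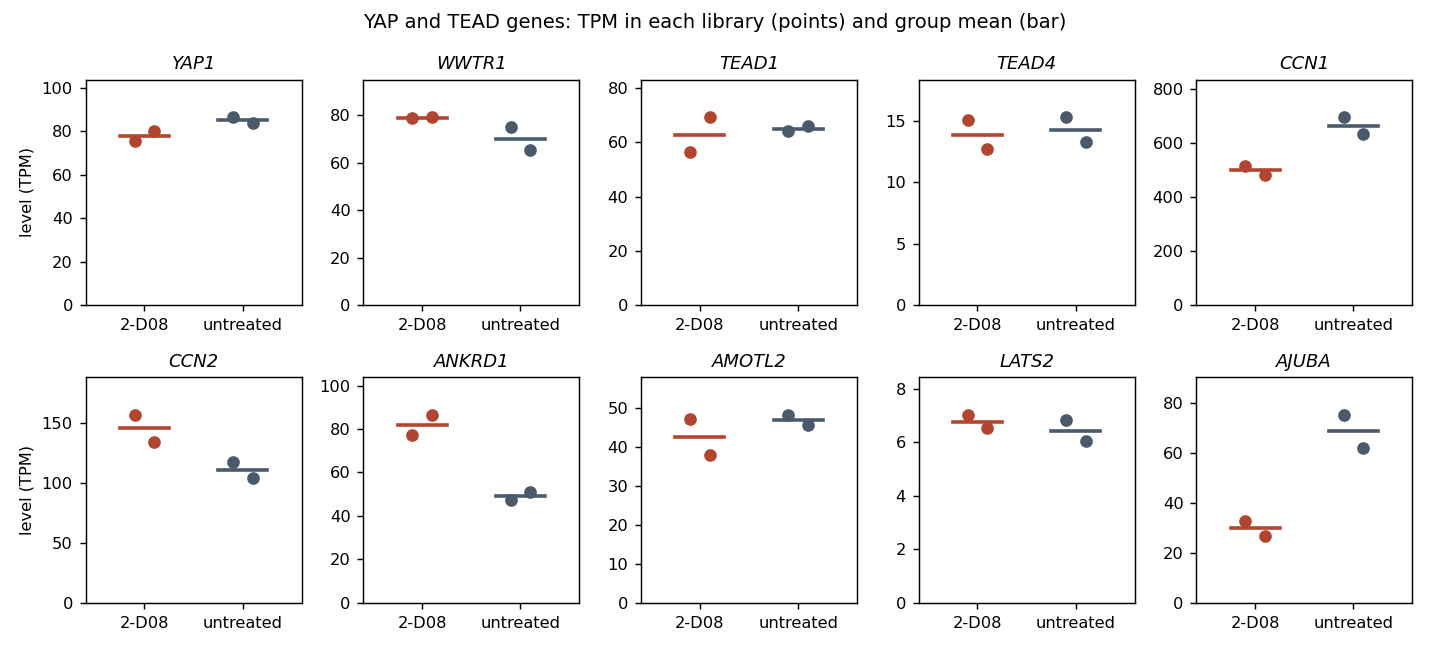
Level of each of the 10 genes in TPM (vertical axes, each from 0) in the 2-D08-treated libraries (red, left) and the untreated libraries (grey, right), with points for libraries and a bar for the group mean of 2. Treated and untreated points are well apart for AJUBA, ANKRD1 and CCN1, closer for CCN2, and overlap for TEAD1, TEAD4, AMOTL2 and LATS2.

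The order of the genes by transcript level was compared in TPM, which the authors scaled by transcript length. CCN1 stood highest, at 498 ± 24.2 TPM in treated cells and 664 ± 42.8 TPM in untreated cells (SD, n = 2 each). CCN2 came next, at 145 ± 15.7 TPM in treated cells and 111 ± 9.11 TPM in untreated cells. In treated cells ANKRD1 (81.9 ± 6.43), WWTR1 (78.9 ± 0.163), YAP1 (77.9 ± 3.26) and TEAD1 (62.8 ± 9.08 TPM) followed, of which the first 3 had overlapping ranges of mean ± SD. In untreated cells the next places were those of YAP1 (85.2 ± 1.75), WWTR1 (70.0 ± 6.91), AJUBA (68.5 ± 9.25) and TEAD1 (65.1 ± 1.34 TPM), of which the last 3 had overlapping ranges of mean ± SD. ANKRD1 was seventh there at 49.1 ± 2.49 TPM, and AJUBA was eighth in treated cells at 29.8 ± 4.18 TPM. AMOTL2 was in between, at 42.5 ± 6.51 TPM in treated and 47.0 ± 1.77 TPM in untreated cells. TEAD4 and LATS2 were lowest in both groups, TEAD4 at 13.9 ± 1.69 TPM in treated and 14.3 ± 1.42 TPM in untreated cells, and LATS2 at 6.77 ± 0.354 TPM in treated and 6.44 ± 0.552 TPM in untreated cells.

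The coactivator genes were well expressed and neither passed the test. YAP1 (chromosome 11, 102110447 to 102233424, GRCh38.p14) had 286 and 306 CPM in treated cells and 300.4 and 313 CPM in untreated cells. The groups overlapped in CPM, whereas in TPM both treated values (75.6 and 80.2) lay below both untreated ones (86.4 and 84.0). The deposited TPM values summed to 741705 and 716934 in the treated libraries and to 761770 and 745964 in the untreated ones. Both treated sums were thus lower too, and what this adds to the YAP1 difference in TPM was not tested. The fitted log2 fold change of YAP1 was -0.05, with a 95% interval of -0.24 to 0.14 (edgeR adjusted p = 0.681). WWTR1 (chromosome 3, 149517235 to 149724788) had 245 and 269 CPM in treated cells and 238 and 235 CPM in untreated cells. Both treated libraries were above both untreated ones by little, and the log2 fold change was 0.12 with an interval of -0.07 to 0.32 (edgeR adjusted p = 0.315). Without 2-D08 replicate 1 the WWTR1 value was 0.19 and passed (edgeR adjusted p = 0.0438, the lowest of the 15 alternatives, whose highest was 0.7). In TPM the ratio of YAP1 to WWTR1 was 0.96 and 1.02 in treated cells and 1.15 and 1.29 in untreated cells, so both transcripts were of like abundance. This ratio is a description and was not tested.

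The TEAD genes encode the factors that bring YAP and TAZ to DNA. TEAD1 (chromosome 11, 12674421 to 12944737) had 340 and 391 CPM in treated cells and 348 and 362 CPM in untreated cells. The treated pair enclosed the untreated pair, and the log2 fold change was 0.04 with an interval of -0.16 to 0.25 (edgeR adjusted p = 0.753). TEAD4 (chromosome 12, 2959397 to 3040676) had 16.5 and 14.3 CPM in treated cells and 15.6 and 14.2 CPM in untreated cells. Its groups overlapped too, at 0.03 with an interval of -0.30 to 0.36 (edgeR adjusted p = 0.893). The fitted sign of TEAD1 and TEAD4 differed between settings. TEAD1 made up 59.4% and 68.6% of the summed TPM of TEAD1 to TEAD4 in treated cells and 61.9% and 64.0% in untreated cells. TEAD4 made up 15.8% and 12.5% in treated cells and 14.7% and 12.9% in untreated cells, with TEAD2 and TEAD3 taking the rest in similar shares.

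The secreted targets CCN1 and CCN2, matricellular proteins once called CYR61 and CTGF, were called in opposite directions. CCN1 (chromosome 1, 85580761 to 85583950) had 768 and 731 CPM in treated cells and 993 and 935 CPM in untreated cells. Both treated libraries were below both untreated ones, and CCN1 was 1.29-fold lower, at -0.36 ± 0.09 on the log2 scale (SE; edgeR's quasi-likelihood adjusted p = 0.00577). This call was lost without untreated replicate 1 (-0.32, adjusted p = 0.21) and without untreated replicate 2 (-0.41, adjusted p = 0.069), and the adjusted p over all alternatives ran from 1.09e-06 to 0.21. CCN2 (chromosome 6, 131948176 to 131951372) had 259 and 233 CPM in treated cells and 188 and 172 CPM in untreated cells. Its upstream window held 3 GGAATG copies, and CCN1 had no window to compare. Both treated libraries were above both untreated ones, and CCN2 was 1.37-fold higher, at 0.45 ± 0.10 on the log2 scale (edgeR adjusted p = 0.00253). The CCN2 call was lost without untreated replicate 2 (0.39, adjusted p = 0.101) and with limma on TPM values, at pseudocounts of 1 and 0.1 (0.39 on both, adjusted p of 0.0805 and 0.0784), within a range of 1.83e-09 to 0.101 over all alternatives. In TPM, CCN1 stood 3.29 and 3.58 times above CCN2 in treated cells and 5.93 and 6.08 times above it in untreated cells. This ratio was lower in both treated libraries than in both untreated ones and was not tested.

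ANKRD1 (chromosome 10, 90912096 to 90921087) encodes an ankyrin repeat protein known from the nucleus and the sarcomere of muscle cells and showed the largest rise among the members. It had 95.3 and 112 CPM in treated cells and 56.2 and 62.5 CPM in untreated cells. Both treated libraries were well above both untreated ones, and ANKRD1 was 1.75-fold higher, at 0.81 ± 0.11 on the log2 scale (95% interval 0.58 to 1.03; edgeR adjusted p = 7.71e-05). The size of this change was at the 88.1 percentile of all tested genes. The call held in all 15 alternatives, with values of 0.68 to 0.91 and adjusted p-values up to 0.0173.

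AMOTL2 and LATS2, the feedback inhibitors, did not pass the test. AMOTL2 (chromosome 3, 134355345 to 134375417), an angiomotin protein that can hold YAP at cell junctions, had 149 and 129 CPM in treated cells and 146 and 139 CPM in untreated cells. The treated pair enclosed the untreated pair, and the log2 fold change was -0.04 with an interval of -0.25 to 0.17 (edgeR adjusted p = 0.801). LATS2 (chromosome 13, 20973036 to 21061586), a kinase that phosphorylates YAP and TAZ, had 29.1 and 28.3 CPM in treated cells and 26.1 and 23.6 CPM in untreated cells. The treated libraries were above the untreated ones in CPM, whereas the groups overlapped in TPM (7.02 and 6.52 in treated, 6.83 and 6.05 in untreated cells). LATS2 had a log2 fold change of 0.20 with an interval of -0.06 to 0.46 (edgeR adjusted p = 0.222). Over the 6 members that did not pass, the widest upper bound was that of LATS2, 1.38-fold, so a rise above that size lay outside the interval of each of the 6.

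AJUBA (chromosome 14, 22971177 to 22982551), a LIM domain scaffold protein that binds LATS kinases and limits their action on YAP, changed most. It had 79.3 and 65.9 CPM in treated cells and 159 and 152 CPM in untreated cells. Both treated libraries were far below both untreated ones, and AJUBA was 2.15-fold lower, at -1.10 ± 0.10 on the log2 scale (95% interval -1.33 to -0.88; edgeR adjusted p = 4.21e-06). The size of this change was at the 93.6 percentile of all tested genes. The call held in all 15 alternatives, with values of -1.24 to -0.98 and adjusted p-values up to 0.0125. GENCODE release 29 places another protein-coding gene on the same strand across AJUBA that has no row of its own in the tables, and how reads shared with it were counted is not given in the sources used here. YAP1, WWTR1, TEAD1, CCN2 and LATS2 have an annotated antisense gene, and the strand setting of the counting is likewise not given, so reads from those partners cannot be told apart.

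**Figure D2:**
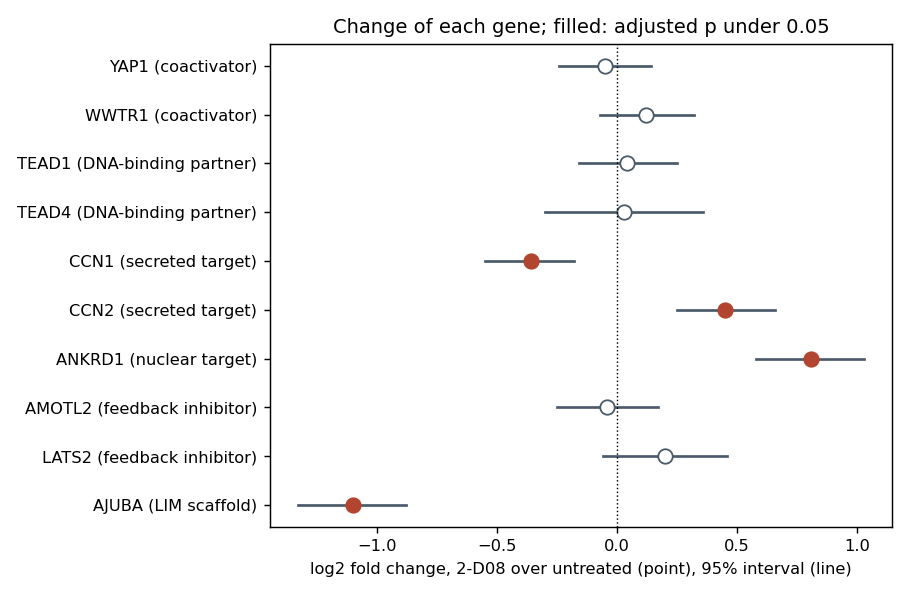
Log2 fold change of 2-D08-treated over untreated cells (horizontal axis) for the 10 genes by role, with the 95% interval of the edgeR fit and filled points for adjusted p under 0.05. AJUBA (-1.10) and CCN1 (-0.36) lie left of 0, CCN2 (0.45) and ANKRD1 (0.81) lie right of it, and the other 6 intervals include 0.

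Genes around the axis were described in 5 lists. Of 18 genes of the Hippo kinase cascade and its regulators, 1 was called higher and 1 lower (5.56% each), against 17.1% and 16.9% of all tested genes, with a median log2 fold change of 0.04. WWC3, a relative of the scaffold KIBRA, was 0.27 ± 0.10 on the log2 scale (76.1 and 74.0 CPM in treated, 60.0 and 64.3 CPM in untreated cells; edgeR adjusted p = 0.0428). The WWC3 call lay close to the threshold and passed in 8 of 15 alternatives, with adjusted p-values over them of 0.00207 to 0.459. FRMD6 (-0.23) and the kinase gene MAP4K4 (0.20) had the next smallest p-values and did not pass (edgeR adjusted p of 0.0605 and 0.108).

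Of 8 genes for other TEADs and cofactors, edgeR called 0 and DESeq2 called 0, against shares of 17.1% higher and 16.9% lower over all tested genes by edgeR. At an unadjusted p under 0.05, 2 of the 8 were higher and 1 lower, against 2883 and 2813 of all 12906. AMOT, the angiomotin gene, had the smallest p (-0.52, edgeR adjusted p = 0.0542), followed by the LIM scaffold gene WTIP (1.03, adjusted p = 0.0653), which had only 25 and 46 counts in treated and 22 and 13 in untreated cells. VGLL4, a cofactor that competes with YAP for TEADs, had a log2 fold change of 0.25 (adjusted p = 0.103) and AMOTL1 one of 0.20 (adjusted p = 0.118). TEAD2 (-0.12) and TEAD3 (-0.20) did not pass either (adjusted p of 0.548 and 0.316).

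A further 17 genes belong to a conserved YAP and TAZ target signature known from cancer studies, from which AMOTL2, LATS2, CCN1, CCN2 and ANKRD1 had been set aside as members. Of these 17, 9 (52.9%) were called lower, against 16.9% of all tested genes, and 3 (17.6%) higher, against 17.1%. Their median log2 fold change was -0.29, against 0.00 for all tested genes. IGFBP3, a binding protein of insulin-like growth factors, had 28.1 and 25.7 CPM in treated cells and 57.8 and 53.2 CPM in untreated cells, at -1.05 ± 0.11 on the log2 scale (edgeR adjusted p = 1.33e-05). The receptor tyrosine kinase gene AXL had 639 and 588 CPM in treated cells against 1102 and 1069 CPM in untreated cells (-0.82). RBMS3, which encodes an RNA-binding protein, had 40.7 and 41.0 CPM in treated and 77.6 and 76.5 CPM in untreated cells (-0.91). In the other direction, the stress-inducible growth arrest gene GADD45A had 181 and 173 CPM in treated and 76.1 and 82.3 CPM in untreated cells, at 1.16 ± 0.09. The signature was thus not uniform in direction, and its lower members outnumbered its higher ones. Of the 17, 12 had an annotated upstream window and 5 of these 12 held GGAATG.

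The CCN family has further members beside CCN1 and CCN2. CCN3 had 6.84 and 6.55 CPM in treated and 3.10 and 3.69 CPM in untreated cells and rose by 0.99 ± 0.22 on the log2 scale (edgeR adjusted p = 0.00341). That call was lost without untreated replicate 1 (adjusted p = 0.0687) and on both TPM scales (0.0526 and 0.0589), the range over all alternatives being 4.52e-05 to 0.0687. CCN5 had 0 and 2 counts in treated cells against 44 and 24 counts in untreated cells (edgeR adjusted p = 0.000233). CCN4 and CCN6 were too low to be tested.

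The actin and SRF list was set beside these because SRF and its actin-regulated cofactors share targets with YAP and TEAD. Of its 16 genes, edgeR called 0 higher and 8 (50%) lower, against 17.1% and 16.9% of all tested genes, with a median of -0.32. At an unadjusted p under 0.05, 0 were higher and 10 lower, against 2883 and 2813 of all 12906. DESeq2 called 0 higher and 8 lower, against 3587 of all tested genes in either direction. The myosin light chain gene MYL9 had 18.2 and 17.6 CPM in treated and 32.8 and 33.2 CPM in untreated cells (-0.88), and TAGLN, which encodes the actin-binding protein transgelin, had 14.95 and 14.6 CPM in treated and 27.1 and 26.1 CPM in untreated cells (-0.85). The cytoplasmic actin gene ACTG1 (-0.52) and the filamin gene FLNA (-0.55) were also called lower, FLNA not without untreated replicate 1 (adjusted p = 0.0664, the highest of its alternatives) or on the TPM scales. On both TPM scales the count called lower was 5. Calls over all tested genes fell there too, from 4376 to 1598 and 1608 at pseudocounts of 1 and 0.1. The SRF gene itself had a log2 fold change of 0.03 and did not pass.

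**Figure D3:**
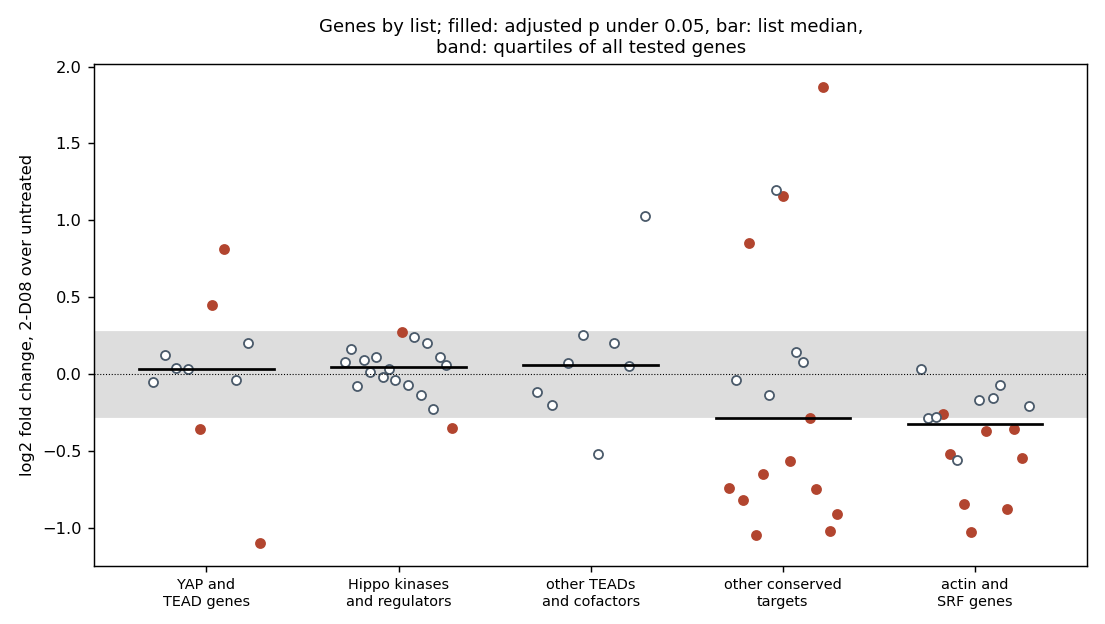
Log2 fold change of 2-D08-treated over untreated cells (vertical axis) for the tested genes of the 10-gene group and 4 lists, with filled points for adjusted p under 0.05, a bar for each median and a band for the range between the quartiles of all tested genes (-0.28 to 0.27). The medians of the other conserved targets (-0.29) and of the actin and SRF genes (-0.32) lie at the lower edge of the band or below it, and those of the other groups lie near 0.

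The genes whose pattern over the 4 libraries lay nearest to single members were found by Euclidean distance between centred log2 CPM values, among genes that averaged 5 CPM or more. Near CCN1 lay TEP1 (distance 0.00883), nearest to YAP1 were DCLRE1C (0.00742) and MIOS (0.0117), nearest to CCN2 were ENTR1 (0.0308) and GSK3A (0.0316), and nearest to ANKRD1 were DDX21 (0.0305) and FRMD3 (0.0373). With 4 libraries in 2 groups many genes share such a pattern, and the nearest ones are given as a description.

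**Figure D4:**
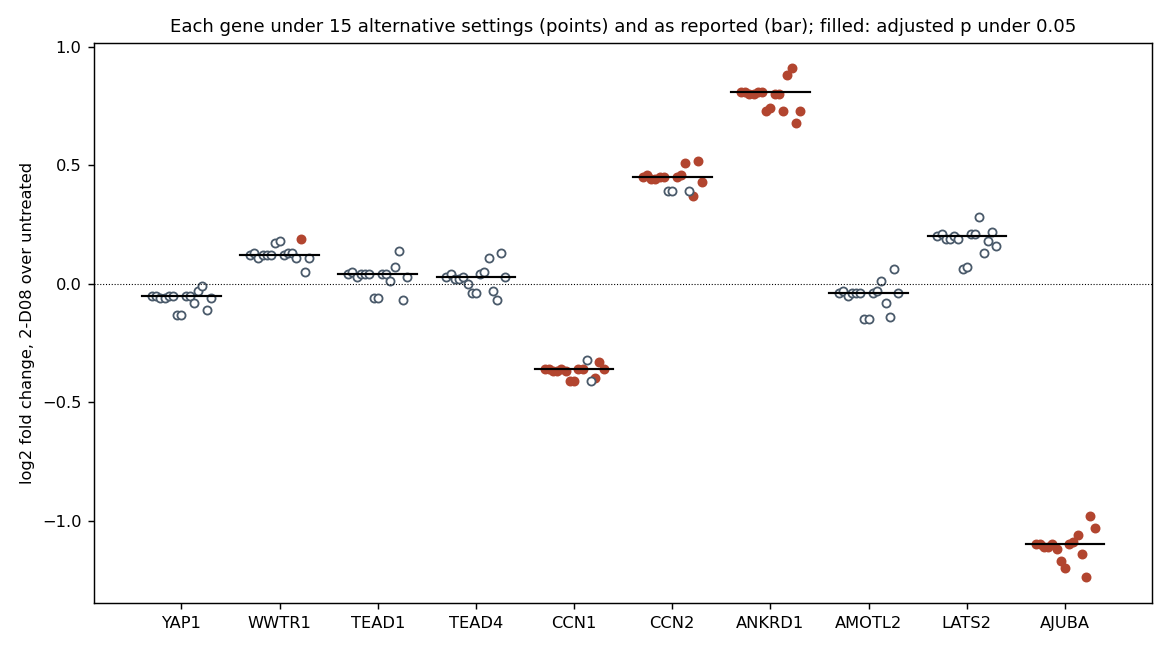
Log2 fold change of each of the 10 genes (vertical axis) under 15 alternative settings (points, filled for adjusted p under 0.05) and as reported (bars). AJUBA and ANKRD1 stay past the threshold throughout, CCN1 and CCN2 keep their direction and have 2 and 3 open points, and TEAD1, TEAD4 and AMOTL2 lie on both sides of 0.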

How the data were processed

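RNA from 4 libraries of SK-LMS-1 cells was sequenced, 2 per group. The submitters' processing notes list STAR 2.7.8a, cutadapt 3.4, DESeq2 and the build GRCh38; which tool counted reads, on which annotation, is not given in the sources used here. Files deposited by the authors hold whole-number read counts per gene, TPM values, and a table named as normalised counts whose deposited values are on a log2-like scale, used only for an alternative. No column lacked a mapped sample. Counts were analysed with edgeR 4.0.16 in R 4.3.3 (filterByExpr, minimum count 10, TMM factors, quasi-likelihood test, two-sided, Benjamini-Hochberg over 12906 genes); standard errors and 95% intervals came from its F statistic. Alternatives used limma 3.58.1, DESeq2 1.42.0, other scalings and filters, a replicate block, halved counts and left-out libraries. Every member was named, with up to 4 genes per list of smallest p and a mean of at least 1 CPM, and the 2 nearest genes of 4 members; CCN5 and the other list genes given were added after their values were seen. Some genes that this rule names are left out here. Members and lists were chosen with earlier results of these data known. Gene positions and upstream sequences came from RefSeq, GRCh38.p14. Simulated data for the treated against untreated comparison held 12906 genes, all with the same dispersion (0.00727), which sets the spread between libraries. Changes of 1.5-fold, 2-fold and 4-fold were planted in 67, 67 and 66 genes averaging at least 1 CPM. Of these, 67.2%, 97% and 100% were recovered, and 6.38% of 188 calls were false. In the real data the spread can differ by gene and 4376 genes were called, so these rates need not carry over.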

Additional observations from a re-analysis of the deposited data

How the results depend on the processing

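AJUBA and ANKRD1 stayed past the threshold in all 15 alternatives. Of 15 called genes among the 29 named or described, 9 did so in all 15 alternatives and 0 turned sign. Of all tested genes, 1598 and 1608 were called with limma on TPM at pseudocounts of 1 and 0.1, against 4376 as reported, and 1866 to 6077 with 1 library left out, fewest without untreated replicate 1 (2695 without untreated replicate 2). Members called higher numbered 1 on both TPM scales and 1 to 3 with a library left out, and members called lower 1 to 2. Of Hippo cascade genes, 0 were called higher with no low-count filter, DESeq2, both TPM scales and the transformed values (a fit chosen after seeing the data), 3 with the replicate block and 0 to 5 with a library left out; 0 were called lower with DESeq2 and both TPM scales, 2 with the block and 0 to 3 with a library left out. Of other TEADs and cofactors, 1 was called higher on log2(TPM + 0.1), 2 with the block and 0 to 1 with a library left out, and 1 was called lower with RLE factors, limma-voom and the block and 0 to 2 with a library left out. CCN3 was the call of its family lost on both TPM scales (0 called), 0.48 on the transformed values, and lost in 1 of the fits with a library left out (0 to 1), and CCN5 was not tested with a mean of at least 5 CPM (0 called lower). Actin and SRF genes called lower numbered 5 on both TPM scales and 4 to 11 with a library left out. Sign changes were those of TEAD1 (-0.06 on both TPM scales, -0.07 to 0.14 with a library left out), TEAD4 (-0.04 on both, -0.07 to 0.13), AMOTL2 (-0.14 to 0.06 with a library left out) and FRMD6 (0.15 on both TPM scales), none past the threshold there. The cause of these differences was not tested. On the 2 TPM scales the median log2 fold change of all tested genes was -0.04 and -0.05, against 0.00 as reported. A fit with 1 library left out assumes that the lone library varies like the other group. The labels do not say that equal replicate numbers mark pairs: same-numbered deviations correlated at 0.157 over 12906 genes and 0.398 over the 10502 of them averaging 5 CPM or more. The replicate block gave 6239 called genes, with no call among the 10 members changed. Of the list genes named in the text it added FRMD6, MAP4K4, AMOT, VGLL4 and AMOTL1 (adjusted p of 0.00592, 0.0168, 0.0222, 0.0136 and 0.029). Among the 10 members, depth limits TEAD4 and LATS2 most, with 234 to 464 and 390 to 872 counts per library.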
